A study of Homo sapiens with 8 samples.

Results

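The 10 genes described here encode the proteins that surround CDK4 at the G1/S transition: the D cyclins CCND1, CCND2 and CCND3, the kinases CDK6 and CDK2, the retinoblastoma protein RB1, and the CDK inhibitors CDKN1A (p21), CDKN1B (p27), CDKN2C (p18) and CDKN2D (p19). They were taken by name, and all 10 were found among the 13546 genes of the deposited count table. The libraries came from tumours formed in nude mice by injected MDA-MB-231, a human cell line of triple-negative breast cancer. In 4 libraries the injected cells had the genotype CDK4WT and in 4 the genotype CDK4KO. Nude mice lack a thymus and mature T cells, and the other host cells of the tumour remain. The labels give neither the way CDK4 was disrupted, nor whether the CDK4KO cells are 1 clone, nor whether each tumour came from a separate mouse, and each p-value therefore covers the spread among the 8 libraries, part of which may be technical.

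D cyclins are made in response to growth signals and bind CDK4 or CDK6. The complexes phosphorylate RB, which then releases E2F factors, and E2F targets such as the E cyclins activate CDK2 and complete the phosphorylation of RB. INK4 inhibitors, among them CDKN2C and CDKN2D, bind CDK4 and CDK6 and keep D cyclins away. CIP/KIP inhibitors, among them CDKN1A and CDKN1B, bind whole cyclin-CDK complexes, inhibit CDK2 and also help D cyclins to assemble with CDK4. CDK6 is the closest relative of CDK4 and can take its D cyclin partners, so the levels of these genes bear on the question of what stands in for CDK4 at the level of mRNA.

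Libraries held 27840883 to 33617977 counts. Markers of the injected line were measured in 10 of 10 cases (VIM, CD44 and AXL among them), and of 7 genes low or absent in the line 3 (ESR1, PGR and CDH1) were not in the table. The other 4 were measured, ERBB2 at 98.7 and 103 CPM (counts per 1000000 counts of the library, its size scaled by edgeR's TMM factor) in CDK4WT and CDK4KO, EPCAM at 9.65 and 10 CPM, KRT5 at 3.63 and 1.61 CPM and KRT14 at 4.15 and 1.88 CPM (means, n = 4 each). Of the host cell markers, 5 of 10 macrophage and leukocyte markers were measured, with a summed level of 17.0 to 28.4 CPM in CDK4WT and 20 to 21.7 CPM in CDK4KO, and 6 of 10 fibroblast markers summed to 791 to 1210 and 691 to 1200 CPM, most of it from COL1A1 (588 and 590 CPM). How reads of the mouse host were treated is not given in the labels, and in bulk tumours fewer cells of a type and less RNA per cell cannot be told apart. CDK4KO replicate 1 stood apart on the second principal component (-31.3, against -1.49 to 9.54 in the other 7 libraries), and CDK4KO replicate 4 lay farthest out on the first (27.1, against 12.9 for the next library).

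The CDK4 transcript was detected in all 8 libraries, under both labels. It stood at 115, 107, 116 and 112 CPM in CDK4WT and 111, 119, 125 and 134 CPM in CDK4KO, replicates 1 to 4. The ranges overlapped, and the difference on the log2 scale (log2 fold change, positive where CDK4KO is higher) was 0.12 ± 0.06 (SE; adjusted p = 0.477, edgeR's quasi-likelihood test). This level of mRNA checks neither the knockout nor the labels, because a disrupted gene can still be transcribed, and because 43.2% of the annotated CDK4 exon bases are shared with TSPAN31 on the opposite strand.

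None of the 10 genes passed the edgeR test adjusted over all genes (threshold 0.05), at adjusted p from 0.113 (CCND2) to 0.882 (CDK2). Of all genes 0.0591% passed, 0.0443% higher and 0.0148% lower in CDK4KO. At an unadjusted p of 0.05, 2 of the 10 passed, CCND2 and CDKN1A, both higher in CDK4KO, against 13.0% of all genes (6.64% higher, 6.33% lower). The same 2 were the members in which every CDK4KO library lay above every CDK4WT library, against 7.68% of all genes without overlap (3.87% higher, 3.81% lower). DESeq2 and limma voom each called 1 of the 10, CCND2, where they called 2.33% and 2.10% of all genes. The other 8 overlapped between the genotypes. Of the 10 log2 fold changes 7 were above 0 and 3 below, where 51.2% of all genes were above 0, and the median was 0.09 over the members and 0.00372 over all genes. The 3 below 0 were CDKN1B, CDKN2C and CDKN2D. The signs of the 8 genes that overlapped carry little weight, since none of them passed edgeR's test at an unadjusted p of 0.05. CDK2 turned to -0.00881 without CDK4WT replicate 4 and to -0.00523 without CDK4KO replicate 2. Whether the D cyclins and kinases differ from the inhibitors in direction was not tested.

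**Figure D1:**
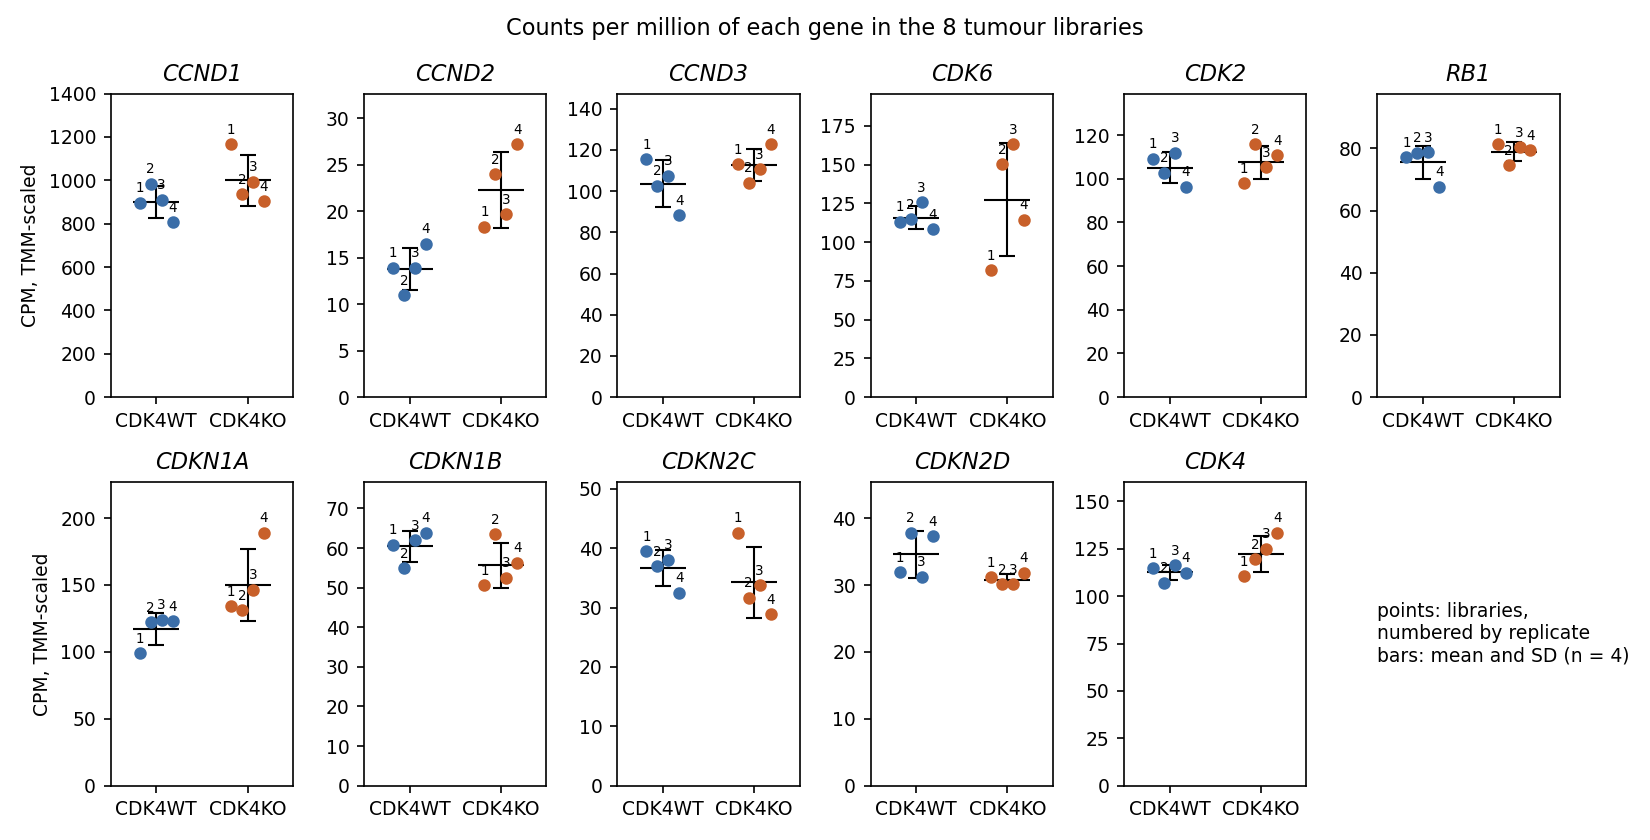
TMM-scaled CPM of the 10 genes and CDK4 in each library (y axis, from 0) by genotype (x axis); points are libraries with their replicate number, bars the mean and SD (n = 4 each). The genotypes do not overlap in CCND2, where 11 to 16.5 CPM faced 18.3 to 27.2 CPM, and in CDKN1A, and CDK6 has the largest spread for its level among the CDK4KO libraries.

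CCND1 encodes cyclin D1, the D cyclin most often amplified in breast cancer. It was by far the most abundant transcript of the group, at 897, 985, 911 and 807 CPM in CDK4WT and 1167, 936, 994 and 904 CPM in CDK4KO. The highest library was CDK4KO replicate 1, and the other 3 CDK4KO libraries lay within or just above the CDK4WT range. The log2 fold change was 0.15 ± 0.09 (SE; edgeR adjusted p = 0.525), with a 95% confidence interval of -0.05 to 0.36, which as a fold spans 0.965 to 1.28. It was 0.07 without CDK4KO replicate 1. In the annotation 10.3% of its exon bases are shared with LTO1 on the opposite strand.

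CCND2 encodes cyclin D2 and lies on chromosome 12 from 4273772 to 4305350 (hg38, plus strand). Its levels were 13.9, 11, 13.9 and 16.5 CPM in CDK4WT and 18.3, 24, 19.7 and 27.2 CPM in CDK4KO. All 4 CDK4KO libraries lay above all 4 CDK4WT libraries. Means were 13.8 CPM ± 2.26 and 22.3 CPM ± 4.07 (SD, n = 4 each). The log2 fold change of 0.69 ± 0.15 had an unadjusted p of 0.00072, rank 86 of 13546 genes, and missed the threshold once adjusted (edgeR adjusted p = 0.113). As a fold its 95% interval was 1.29 to 2.02. The call depends on the test and on 1 library: CCND2 passed with DESeq2 (adjusted p = 0.00197), with limma voom and library quality weights (adjusted p = 0.0205) and in edgeR without CDK4KO replicate 1 (adjusted p = 0.0326, with 1.35% of all genes called), and the log2 fold change lay between 0.58 and 0.78 in the 8 fits that each left out 1 library.

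Genes around CCND2 also had values above 0. Of its 20 nearest measured genes, 10 on each side, 18 had a positive log2 fold change, with a median of 0.13. Of 12979 genes with 20 such neighbours, 0.693% had a neighbour median as high. Medians were also above 0 around CDKN1B (0.17, reached by 0.0693%), CDK2 (0.11, 2.87%), CCND3 (0.10, 3.58%) and CDKN2C (0.09, 5.22%). Around CDK6 and RB1 they were 0.05 and 0.01, and around CCND1, CDKN1A and CDKN2D each -0.01. The next gene downstream, TIGAR, named after its values were seen, starts 2413 bases past the end of CCND2 and stood at 4.24 CPM ± 0.444 and 6.02 CPM ± 1.74 (SD, n = 4 each; log2 fold change 0.51 ± 0.21, edgeR adjusted p = 0.328). TIGAR, a regulator of glycolysis, overlapped between the genotypes, with CDK4KO replicate 1 at 3.59 CPM and the other 3 CDK4KO libraries at 6.17 to 7.66. An annotated gene on the same strand, AC008012.1, shares 989 exon bases with CCND2 and 1711 with TIGAR, which is 13.8% of the CCND2 exon bases. CCND2 exceeded the median of its neighbours, and the part of the neighbourhood in its value was not tested.

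Cyclin D2 is also made by host cells, so markers of other cells are set beside it. Of 11 endothelial markers 8 were measured, and 7 of these had positive log2 fold changes with a median of 0.20. At an unadjusted p of 0.05 (edgeR), 4 of the 8 were higher in CDK4KO: ROBO4 (0.54 ± 0.10), MMRN2 (0.78 ± 0.22) and ESAM (0.19 ± 0.06), each without overlap between the genotypes, and PECAM1 (0.34 ± 0.13). None of them passed over all genes (lowest edgeR adjusted p = 0.0749, ROBO4). Of all genes, 6.64% were higher at that unadjusted p and 3.87% lay higher without overlap. The marker lists were chosen with earlier results of these data known, so their counts and sums describe the data and test nothing. The summed level of the 8 was 334 to 375 CPM in CDK4WT and 396 to 463 CPM in CDK4KO, without overlap. Most of that sum came from ESAM, ROBO4 and TIE1. TIE1 was the 1 measured endothelial marker below 0, at 87.1 CPM ± 6.49 and 76.6 CPM ± 10.6 (SD, n = 4 each; log2 fold change -0.19 ± 0.10). The defining markers CDH5, EMCN and CLDN5 were not in the table. VWF stood at 0.955 CPM ± 0.207 and 1.05 CPM ± 0.223, and KDR at 11.5 CPM ± 0.341 and 11.8 CPM ± 1.61 (SD, n = 4 each). Muscle and fat markers lay the other way. Of 10 skeletal muscle markers 3 were measured, all below 0, and DES (-1.33 ± 0.36) and ACTA1 (-1.21 ± 0.41) were lower at an unadjusted p of 0.05, with sums of 9.94 to 31.9 CPM in CDK4WT and 6.58 to 14.1 CPM in CDK4KO. Both fat markers measured of 6, LPL (-1.36 ± 0.42) and PLIN1 (-0.91 ± 0.29), were lower at that p too, with sums of 2.95 to 9.65 and 2.53 to 3.64 CPM. Of all genes 6.33% were lower at that p. Whether host transcripts have a part in the CCND2 level was not tested.

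CCND3, which encodes cyclin D3, stood at 116, 103, 108 and 88.4 CPM in CDK4WT and 113, 104, 111 and 123 CPM in CDK4KO. Only CDK4KO replicate 4 lay above the CDK4WT range, and CDK4WT replicate 4 was the lowest library. The log2 fold change was 0.12 ± 0.08 (SE; edgeR adjusted p = 0.58; fold interval 0.957 to 1.24).

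Levels of different genes were compared per kilobase of annotated exon (CPM per kilobase). On this scale CCND1 stood at 186 ± 15.2 in CDK4WT and 207 ± 24.3 in CDK4KO, CCND3 at 17.8 ± 1.97 and 19.4 ± 1.34, and CCND2 at 1.93 ± 0.316 and 3.12 ± 0.568 (SD, n = 4 each). CCND1 was thus 96.4 times the level of CCND2 in CDK4WT and 66.5 times in CDK4KO. Cyclin D1 transcripts made up 90.4% ± 0.795 of the summed D cyclin level in CDK4WT and 90.1% ± 1.41 in CDK4KO. The share of CCND2 was 0.951% ± 0.231 and 1.38% ± 0.364, with overlapping libraries (0.687 to 1.25% and 0.971 to 1.79%). The difference between the genotype means was 1.18 CPM per kilobase for CCND2 and 20.8 for CCND1, whose libraries overlapped. The D cyclin total was 185 to 223 in CDK4WT and 212 to 264 CPM per kilobase in CDK4KO, and no p was computed for these sums. With the longest transcript in place of all exons the share of CCND1 was 82.1% and 82.0%, since the exons of CCND3 add up to 5802 bases and its longest transcript to 2394.

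**Figure D2:**
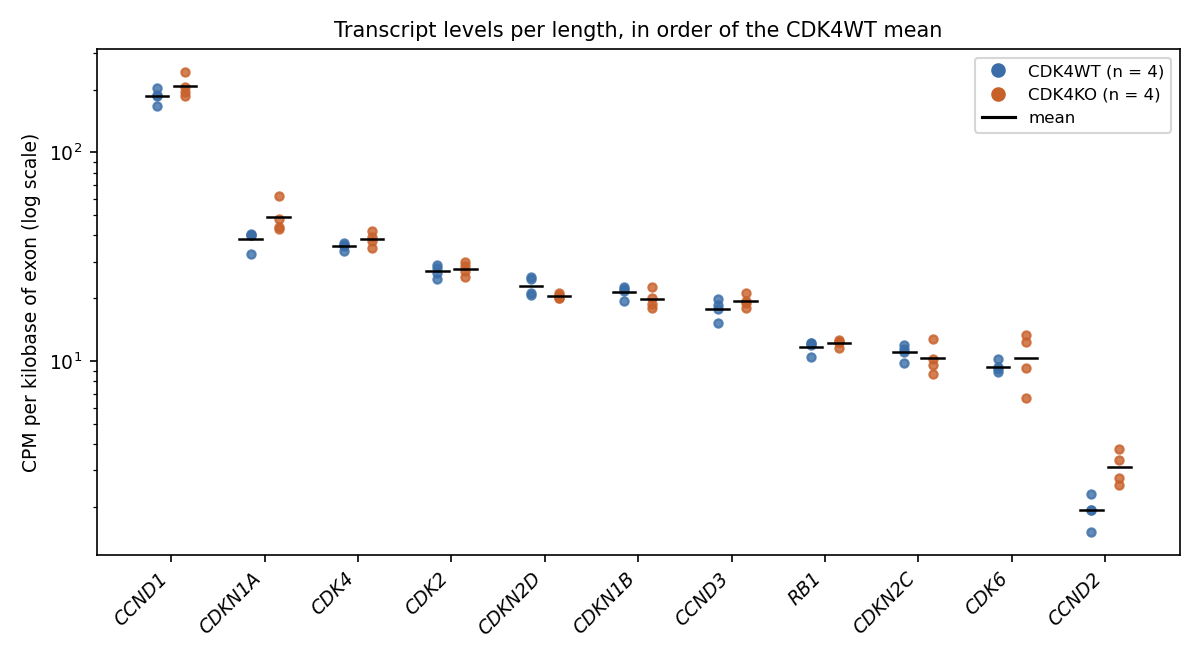
CPM per kilobase of exon (y axis, log scale) of the 10 genes and CDK4 (x axis, in order of the CDK4WT mean); points are libraries and black lines the means (n = 4 each). CCND1 is highest, at a mean of 186 in CDK4WT and 207 in CDK4KO, and CCND2 lowest, at 1.93 and 3.12.

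In the full order of levels per kilobase, CCND1 was followed in CDK4WT by CDKN1A (38.3), CDK4 (35.5), CDK2 (27.0), CDKN2D (23.0), CDKN1B (21.5), CCND3 (17.8), RB1 (11.7), CDKN2C (11.1), CDK6 (9.43) and CCND2 (1.93). Gaps without overlap of libraries fell between CCND1 and CDKN1A, between CDK4 and CDK2, between CCND3 and RB1, and between CDK6 and CCND2. Other neighbours in this order had overlapping ranges. Among these, CDKN1B lay above CCND3, RB1 above CDKN2C and CDKN2C above CDK6 within each of the 4 libraries, CDKN1A above CDK4 and CDK2 above CDKN2D in 3 of 4, and CDKN2D above CDKN1B in 2 of 4. In CDK4KO the order of the means differed only in the exchange of CDK6 (10.4) and CDKN2C (10.3), which overlapped. Within the CDK4KO libraries CDKN1B lay above CCND3 in 1 of 4 and RB1 above CDK6 in 2 of 4. CDK6 lay above CDKN2C, and CDKN2D above CDKN1B, in 3 of 4. There CDKN1A (49.2) and CDK4 (38.6), and CDK2 (27.6) and CDKN2D (20.5), no longer overlapped. With the longest transcript as the length, and CDK4 set aside, 6 of the 10 genes kept their rank in CDK4WT. CCND3, with 5802 bases of exon and 2394 in its longest transcript, then lay above CDK2, CDKN2D and CDKN1B.

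CDK6 is the other D cyclin-dependent kinase. It stood at 113, 115, 126 and 108 CPM in CDK4WT and 82.0, 150, 163 and 114 CPM in CDK4KO. CDK4KO replicates 2 and 3 lay above every CDK4WT library, replicate 1 below every one and replicate 4 inside their range. The coefficient of variation was 6.41% in CDK4WT and 28.8% in CDK4KO, a ratio of 4.49. Over all genes the median coefficient of variation was 7.18% and 10%, and 5.34% of genes had a ratio at least as high. The log2 fold change was 0.14 ± 0.18 (SE; edgeR adjusted p = 0.787). Its fold interval, 0.826 to 1.47, was the widest among the 8 genes that overlapped, and it holds both a lower and a moderately higher level. The value moved with the libraries: it was 0.30 without CDK4KO replicate 1, 0.05 without replicate 2 and 0.000226 without replicate 3. Without CDK4KO replicates 1 and 4 together, a choice made after the data were seen, CDK6 stood at 0.44 (edgeR adjusted p = 0.0132), in a fit that called 3.30% of all genes. Replicates 1 and 4 are the 2 CDK4KO libraries with the lowest CDK6 levels, so their removal raises the value by itself, and it supports no call.

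Per kilobase, CDK4 was 3.77 times as abundant as CDK6 in CDK4WT and 3.71 times in CDK4KO. CDK6 made up 20.3, 21.7, 21.8 and 20% of the sum of both kinases in CDK4WT and 16.1, 24.5, 25.2 and 18.1% in CDK4KO. The means were 21.0% in both genotypes (SD 0.952 and 4.57, n = 4 each), and the CDK4KO libraries lay on both sides of all CDK4WT libraries. The ratio and the share depend on the length used. Exons of CDK4 add up to 3168 bases and its longest transcript to 2076, against 12260 and 11612 for CDK6. With the longest transcripts the ratio is higher and the share of CDK6 lower. The overlap of CDK4 exons with TSPAN31, and the limit on reading CDK4 mRNA in CDK4KO, apply here too.

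CDK2, the kinase that acts with E and A cyclins after CDK4, stood at 109, 103, 112 and 96.4 CPM in CDK4WT and 98.0, 116, 105 and 111 CPM in CDK4KO. The log2 fold change was 0.03 ± 0.07 (SE; edgeR adjusted p = 0.882), and its fold interval of 0.920 to 1.14 spans small differences in either direction. RB1, the target of all 3 kinases, stood at 77.1, 78.5, 78.8 and 67.6 CPM in CDK4WT and 81.3, 74.6, 80.3 and 79.5 CPM in CDK4KO. Its log2 fold change was 0.06 ± 0.06 (SE; edgeR adjusted p = 0.714; fold interval 0.948 to 1.15). The ranges of both genes overlapped. On the log2 scale they held the narrowest intervals of the 10 genes, -0.12 to 0.19 for CDK2 and -0.08 to 0.20 for RB1. In the annotation 14.5% of the CDK2 exon bases are shared with the antisense gene AC025162.1.

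**Figure D3:**
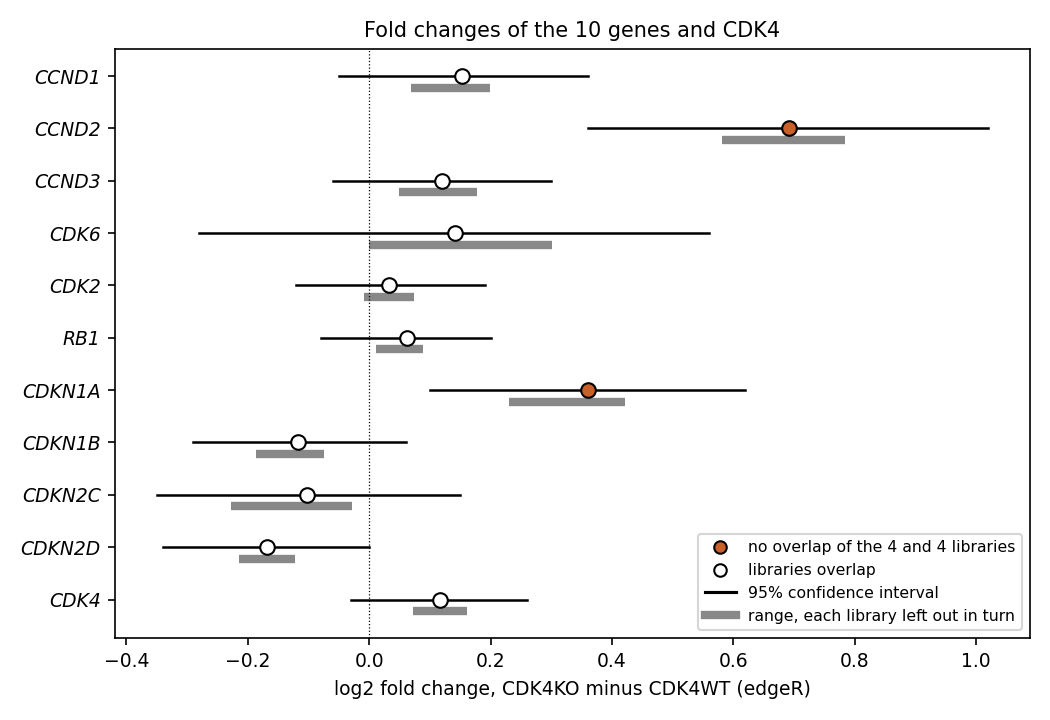
Log2 fold change of each gene, CDK4KO minus CDK4WT (x axis, edgeR); circles are the fitted values, black lines 95% confidence intervals and grey bars the range when each of the 8 libraries is left out in turn. CCND2 (0.69) and CDKN1A (0.36) have intervals above 0, and the interval of CDK6 is the widest of the other genes.

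CDKN1A encodes p21, the CIP/KIP inhibitor best known as a p53 target. It stood at 99.0, 122, 124 and 123 CPM in CDK4WT and 134, 131, 146 and 189 CPM in CDK4KO. Every CDK4KO library lay above every CDK4WT library, and the highest, CDK4KO replicate 4, lay well apart from the other 3. Means were 117 CPM ± 12 and 150 CPM ± 26.8 (SD, n = 4 each), for a log2 fold change of 0.36 ± 0.12 that missed the threshold once adjusted (edgeR unadjusted p = 0.0116, adjusted p = 0.246; fold interval 1.07 to 1.54). Without CDK4KO replicate 4 it was 0.23. Its 20 nearest measured genes had a median log2 fold change of -0.01, 9 of them positive, so the values around it on chromosome 6 lay on both sides of 0.

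CDKN1B, the other CIP/KIP inhibitor measured among the 10, encodes p27. Its levels were 60.9, 54.9, 62.0 and 63.9 CPM in CDK4WT and 50.6, 63.5, 52.5 and 56.3 CPM in CDK4KO. The log2 fold change was -0.12 ± 0.08 (SE; edgeR adjusted p = 0.576; fold interval 0.816 to 1.04), with CDK4KO replicates 1 and 3 below the CDK4WT range and replicate 2 near its top. CDKN1B lies on the same arm as CCND2, on chromosome 12 from 12715058 to 12722371. Its 20 nearest measured genes had a median log2 fold change of 0.17, with 14 positive, which 0.0693% of genes with 20 neighbours reach. CDKN1B thus lay below 0 in a neighbourhood above 0. The 100 other genes measured from the first neighbour of CCND2 to the last of CDKN1B (2.79 to 14.6 megabases) had a median of 0.05, and 70 were positive. Within this stretch of 100 genes 15 (15%) were higher at an unadjusted p of 0.05, against 6.64% of all genes, and 5 were lower, against 6.33%. Without overlap between the genotypes, 8 lay higher and 3 lower, against 3.87% and 3.81% of all genes. The median shift of the stretch from the CDK4WT means was -0.05, 0.09, 0.03 and 0.16 in CDK4KO replicates 1 to 4 and -0.04 to 0.03 in the CDK4WT libraries, all on the log2 scale, so it was largest in replicate 4 and below 0 in replicate 1. The stretch was chosen after its values were seen, and 0 of its genes passed edgeR's test over all genes.

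CDKN1A made up 60.0 to 67.2% of the summed level of CDKN1A and CDKN1B per kilobase in CDK4WT and 65.5 to 75.6% in CDK4KO. The means were 64% ± 3 and 71.0% ± 4.16 (SD, n = 4 each), and the ranges overlapped through CDK4KO replicate 2.

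CDKN2C and CDKN2D, the INK4 inhibitors of the group, had negative values. CDKN2C (p18) stood at 39.5, 36.9, 38.1 and 32.5 CPM in CDK4WT and 42.6, 31.7, 33.8 and 28.9 CPM in CDK4KO. CDKN2D (p19) stood at 32.0, 37.9, 31.2 and 37.3 CPM in CDK4WT and 31.1, 30.1, 30.1 and 31.8 CPM in CDK4KO. In CDKN2C the CDK4KO libraries held both the highest and the lowest value of the 8. In CDKN2D 3 CDK4KO libraries lay below every CDK4WT library and the fourth lay inside their range. Log2 fold changes were -0.10 ± 0.11 for CDKN2C (edgeR adjusted p = 0.742; fold interval 0.782 to 1.11) and -0.17 ± 0.08 for CDKN2D (edgeR unadjusted p = 0.0548, adjusted p = 0.397; fold interval 0.790 to 1). Per kilobase CDKN2D was 2.08 times as abundant as CDKN2C in CDK4WT and 1.99 times in CDK4KO. The ratio of both inhibitors to CDK4 plus CDK6 was 0.731, 0.841, 0.686 and 0.782 in CDK4WT and 0.807, 0.592, 0.573 and 0.581 in CDK4KO, so 3 of the 4 CDK4KO libraries lay below all CDK4WT libraries and replicate 1 inside their range. CDKN2A and CDKN2B, the other INK4 genes, were not in the table, which holds only genes of at least 1 CPM in 4 libraries, and the CDKN2A locus is known to be deleted in MDA-MB-231 cells.

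Promoter sequences from RefSeq (GRCh38.p14) were found for 7 of the 10 genes, and not for CCND1, CCND2 and CDK2. The CDK inhibitors with the smallest p in each direction are shown, CDKN1A (chr6:36678464-36678657, plus strand) and CDKN2D (chr19:10569060-10569229, minus strand), each as the stretch before the first annotated exon base of the gene in the window, 5′ to 3′, with matches to the SP1 box GGGCGG (either strand) in capitals.
CDKN1A: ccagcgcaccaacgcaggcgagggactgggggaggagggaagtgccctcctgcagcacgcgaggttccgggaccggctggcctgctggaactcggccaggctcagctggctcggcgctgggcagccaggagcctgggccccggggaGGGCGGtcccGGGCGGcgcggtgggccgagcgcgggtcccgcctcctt
CDKN2D: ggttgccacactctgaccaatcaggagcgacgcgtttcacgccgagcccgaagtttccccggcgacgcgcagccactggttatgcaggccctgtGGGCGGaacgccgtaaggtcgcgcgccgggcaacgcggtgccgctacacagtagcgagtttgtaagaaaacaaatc
The CDKN1A stretch lies inside the annotated gene (36676460 to 36687339), past its first annotated start. Its motif counts therefore do not cover the sequence before that first start. The 194 bases of CDKN1A held 2 SP1 boxes and the 170 bases of CDKN2D 1, where 39.8% and 38.3% of all promoter stretches of these lengths held at least 1. CDKN2D also held 1 CCAAT box (CCAAT, either strand), as did 25.4% of all stretches of its length. The other motifs searched were the E-box CACGTG, the E2F sites TTTCGCGC and TTTGGCGC, the cyclic AMP response element TGACGTCA and the AP-1 site TGACTCA, on both strands. None of them was found in either stretch, and among all stretches of 194 bases they occurred in 5.37%, 0.777% (both E2F sites together), 1.55% and 3.47%. No motif searched contains another, and a match describes letters, not binding.

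The wider pathway showed few differences. Beside the 10 genes and CDK4, 122 of 127 listed pathway genes were measured, and 0 passed edgeR's test over all genes (lowest adjusted p 0.126). At an unadjusted p of 0.05 there were 10 (5 higher, 5 lower), or 8.20%, against 13.0% of all genes, and 5 genes, or 4.10%, did not overlap between the genotypes, against 7.68% of all genes. DESeq2 called 2 of the 122, BTRC and DDB2, and limma voom 1, DDB2, neither above the 2.33% and 2.10% of all genes that these tools called.

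Of 12 RB relatives, E2F and DP factors, 5 had positive and 7 negative log2 fold changes, with a median of -0.04 and a range of -0.07 to 0.08. E2F3, an activating factor released from RB, and E2F4, which acts mainly with the RB relatives, had the smallest p, at 0.08 ± 0.07 and -0.05 ± 0.05. Among 25 E2F target genes of G1/S, 9 were positive and 16 negative (median -0.01), with RFC4, a clamp loader subunit, at -0.23 ± 0.11 and RRM1, a subunit of ribonucleotide reductase, at -0.13 ± 0.06. The 10 proliferation markers had a median of -0.04, with MKI67 at 0.15 ± 0.09 and the mitotic kinase AURKB at -0.14 ± 0.08. None of these 3 lists held a gene at an unadjusted p under 0.05. The genes downstream of RB thus had small values on either side of 0.

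Among 14 other cyclins, CDKs and activators, CDK4 included, 7 were positive and 7 negative. CDC25B, a phosphatase that activates CDKs, stood at 173 CPM ± 7.87 and 198 CPM ± 23.4 (SD, n = 4 each; 0.19 ± 0.08, edgeR adjusted p = 0.35), and CDK7, the CDK-activating kinase, at -0.11 ± 0.07. Of the other CDK inhibitors 2 of 4 were measured, CDKN3 at -0.24 ± 0.15 and CDKN1C at -0.08 ± 0.11.

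In the list of D cyclin and inhibitor turnover and CDK chaperones (18 measured, 8 positive, median -0.03), BTRC, a substrate receptor of SCF ubiquitin ligases, stood at 46.5 CPM ± 2.32 and 55.1 CPM ± 1.68 (SD, n = 4 each) without overlap. Its log2 fold change of 0.24 ± 0.06 did not pass with edgeR (adjusted p = 0.145) and passed with DESeq2 (adjusted p = 0.0132). GSK3B, a kinase that marks cyclin D1 for degradation, stood at 0.14 ± 0.06 (edgeR adjusted p = 0.355). AMBRA1, FBXO31 and SKP2, other parts of this machinery, did not pass either.

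Of 27 transcription factors that act on D cyclin and CDKN1 genes, 12 were positive and 15 negative (median -0.01). At an unadjusted p of 0.05 (edgeR), 1 was higher and 2 were lower, against 6.64% and 6.33% of all genes. The higher 1 was CREB1 (0.16 ± 0.07). The 2 without overlap, where 7.68% of all genes had none, were KLF6 and SMAD2, and SMAD2 was higher (0.07 ± 0.05). CREB1 and SMAD2 were named after their values were seen. KLF6, a zinc finger factor that can activate CDKN1A, stood at 501 CPM ± 84.0 and 397 CPM ± 26.4 without overlap (SD, n = 4 each; -0.34 ± 0.11, edgeR adjusted p = 0.233). JUN, the AP-1 factor that can activate CCND1, stood at 352 CPM ± 8.75 and 300 CPM ± 44.1 (-0.23 ± 0.09, edgeR adjusted p = 0.337).

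CDKN1A was set beside 19 other p53 targets, in a line known to carry mutant p53. Of these 10 were positive and 9 negative, with a median of 0.03. The 2 with the smallest p lay below 0: DDB2, a DNA damage sensor, stood at 26.0 CPM ± 1.14 and 21.3 CPM ± 0.845 without overlap (SD, n = 4 each; -0.29 ± 0.07, edgeR adjusted p = 0.126, DESeq2 adjusted p = 0.0112), and the death receptor TNFRSF10B at -0.22 ± 0.07 (edgeR adjusted p = 0.239). TIGAR, described beside CCND2 and also a p53 target, had the largest value of the list at 0.51 ± 0.21 and passed without CDK4KO replicate 1 (0.69, edgeR adjusted p = 0.0428). MDM2 (0.20 ± 0.12), AEN (0.20 ± 0.10) and SESN2 (0.19 ± 0.10), named after their values were seen, were also above 0 (edgeR unadjusted p 0.0677 to 0.121). PHLDA3, named likewise, stood at -0.29 ± 0.12 without overlap (edgeR unadjusted p = 0.0275). At an unadjusted p of 0.05, 3 of the 19 were lower and 1 higher, against 6.33% and 6.64% of all genes. The 2 without overlap, DDB2 and PHLDA3, were both lower. Values thus lay on both sides of 0.

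**Figure D4:**
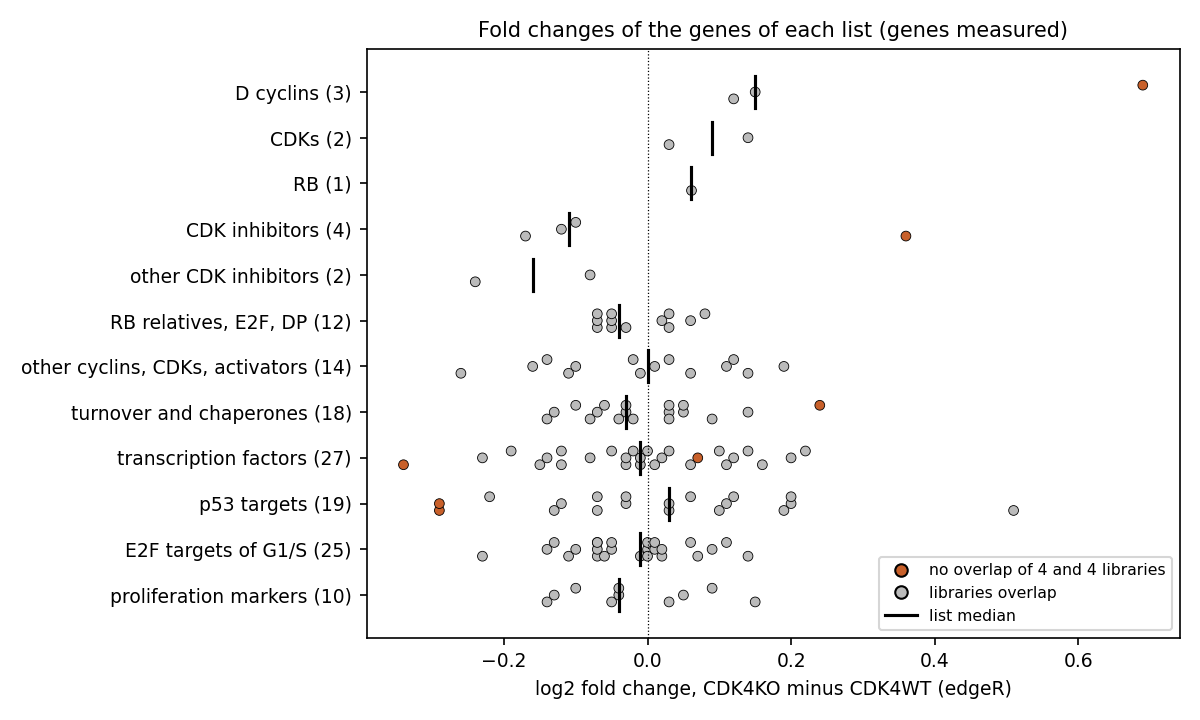
Log2 fold change, CDK4KO minus CDK4WT (x axis, edgeR), of each measured gene of the pathway lists (y axis, number measured in brackets); orange points are genes whose 4 and 4 libraries do not overlap and black lines the list medians. CCND2 at 0.69 lies farthest from 0, and the medians of the lists with 10 or more genes lie between -0.04 and 0.03.

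The genes most like the 3 members with the smallest p were sought by Pearson's r of log2 CPM over the 8 libraries, among 11439 genes with a mean log2 CPM of at least 2. With so many genes and 8 libraries high values arise readily, and r holds the difference between genotypes as well as the spread within them, so no p is given. For CCND2 they were R3HCC1L (0.993), MANSC1 (0.976) and TVP23C (0.956). MANSC1 lies on the same chromosome arm, on chromosome 12 from 12326056 to 12350541, within the stretch described beside CDKN1B, and stood at 24.0 CPM ± 1.53 and 33.3 CPM ± 3.73 (SD, n = 4 each; 0.47 ± 0.09, edgeR adjusted p = 0.0749). For CDKN1A they were S100A13 (0.984), C19orf25 (0.960) and ZNF416 (0.959), and for CDKN2D TAF10 (0.934), NDUFS3 (0.916) and OBSL1 (0.907).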

How the data were processed

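Whole-number counts per Ensembl gene, not normalized, were deposited by the authors in 1 table. cutadapt, STAR 2.7.11a, featureCounts 2.0.4, DESeq2 1.46.0 and the build hg38 are named in the submitters' processing notes. Which annotation was used, whether counting used strand, and how mouse reads were handled: not given in the sources used here. CDK4KO columns were matched to samples through the number of the library name. Symbols were found for 13524 of 13546 genes, and positions and exon lengths were taken from GENCODE 29 (hg38).

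The comparison of genotypes used edgeR 4.0.16 (R 4.3.3) with TMM scaling, filterByExpr (0 genes removed), robust quasi-likelihood fit and Benjamini-Hochberg adjustment over all 13546 genes, at a threshold of 0.05. CPM are TMM-scaled, log2 CPM have a prior count of 2, and each SE follows from the F statistic. The members had 372 to 34143 counts per library, against a biological coefficient of variation of 11.7% over all genes (edgeR common dispersion).

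The members, lists and tests were chosen with earlier results of these data known. Named genes are the members, CDK4, up to 2 genes of smallest p per pathway list, and genes that share exons with a member. The rule also names the 3 genes most like each of the 3 members with the smallest p. TIGAR, markers, other p53 targets (MDM2, AEN, SESN2, PHLDA3), the factors CREB1 and SMAD2 and genes named as not passing (AMBRA1, FBXO31, SKP2) lie outside this rule. Alternatives were DESeq2 1.42.0, limma 3.58.1 (voom with quality weights), other scalings, filters and dispersions, the replicate number as a block, and each library left out. On data simulated for this comparison with 13546 genes, the fit recovered 68.5%, 87.8% and 98.9% of genes changed 1.5-, 2- and 4-fold, with 6.75% of calls false. The simulation drew each gene on its own, without shifts of whole libraries such as those of CDK4KO replicates 1 and 4. These shares therefore do not give the recovery in the real libraries, and a gene that did not pass may still differ.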

Additional observations from a re-analysis of the deposited data

Results flagged for a closer look

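In groups of 4 libraries, 2 of 22 had a library whose gap to its nearest neighbour took up more of the group's range than Dixon's critical value allows, which chance gives in about 1 of 20 groups. CDKN1A stood at 99 CPM in CDK4WT replicate 1, with 122 to 124 CPM in the other 3 CDK4WT libraries (0.931 of the range). RB1 stood at 67.6 CPM in CDK4WT replicate 4, with 77.1 to 78.8 CPM in the others (0.851 of the range).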

How the results depend on the processing

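The number of genes called depends on the test: 8 with edgeR, 315 with DESeq2, 285 with limma voom, 14 with library size only as the scaling, 13 with the replicate number as a block, 0 to 183 with each library left out (183 without CDK4KO replicate 1, 17 without CDK4KO replicate 4, and 0 without CDK4WT replicate 4 or CDK4KO replicate 2, 1 without each of the others; the edgeR fits with 0 had 1582 to 1688 genes at an unadjusted p under 0.05), and 447 without CDK4KO replicates 1 and 4, a choice made after seeing the data. With edgeR 6 were higher and 2 lower, and with library size only 7 and 7. The cause was not tested. Of 187 fold changes of the 10 genes and CDK4 under an alternative, 180 kept their direction and side of the threshold. The fit with no filter repeats the main fit, as filterByExpr removed 0 genes, so its values could not differ. None of these genes passed in the main fit. Keeping their side thus meant not passing, also in fits with fewer libraries. CCND2 passed with DESeq2 (0.689), limma voom (0.717), without CDK4KO replicates 1 and 4 (0.661) and without CDK4KO replicate 1 alone (0.773), within a leave-one-out range of 0.581 to 0.784. CDK6 passed without CDK4KO replicates 1 and 4 (0.439), its lowest 2 CDK4KO libraries. CDK2 turned to -0.00881 without CDK4WT replicate 4 and to -0.00523 without CDK4KO replicate 2, within a leave-one-out range of -0.00881 to 0.0733. These fits called 1 D cyclin in each case where CCND2 passed, 1 CDK without both libraries, 1 turnover gene (DESeq2), and 1 p53 target (DESeq2, limma voom, and without CDK4KO replicate 1 or replicates 1 and 4), so with 1 library left out the counts of D cyclins and of p53 targets ranged from 0 to 1, and those of CDKs and turnover genes were 0. With the longest transcript as the length, 6 of 10 genes kept their rank, and the shares were 82.1% and 82.0% for CCND1 and 17.0% and 16.7% for CCND3 in CDK4WT and CDK4KO; the transcript lengths set this difference. Same-numbered libraries did not deviate together (correlations -0.0313, -0.0142, 0.00348 and 0.194), so the block shares only a number; 1 of 4 numbers correlated best with its own.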
